A study of Mus musculus with 4 samples.

Results

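The calponin genes Cnn1, Cnn2 and Cnn3, the transgelin genes Tagln and Tagln2 and the caldesmon gene Cald1 were followed in neutrophils with and without serum response factor (SRF). They were picked by symbol, and all 6 were found among the 23284 genes of the authors' deposited gene table. RNA had been sequenced from mature mouse neutrophils of bone marrow, which the labels describe as sorted for strong Gr1 and 7/4 staining and a high side scatter. There were 2 Srf KO samples and 2 WT samples, and the study's question was the need for SRF when neutrophils migrate in inflammation. How Srf was deleted, in which cells, and the age and strain of the mice are not given in the sources used here. The authors' deposited tables hold 1 pooled value per genotype in FPKM (fragments counted, scaled to transcript length and to library size), so the depth of sequencing is unknown and replicates cannot be compared. Nor do the labels say whether the samples of a genotype came from separate animals, so the authors' p-values may reflect technical spread only.

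Calponins and transgelins are related proteins that bind along the side of actin filaments, where they steady the filaments. In smooth muscle, calponin also restrains myosin. Caldesmon binds actin together with tropomyosin and has the same restraining role. Cnn1, Tagln and Cald1 are textbook markers of smooth muscle and classic targets of SRF, which binds a DNA element called the CArG box. Cnn2 and Tagln2 are the forms found in blood leukocytes, and Cnn3 is an acidic calponin of many non-muscle tissues. In mouse macrophages Cnn2 is known to slow migration and phagocytosis, and Tagln2 is known to steady actin at the contact between T cells and antigen-presenting cells.

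Promoter sequence is shown for the leukocyte forms because these were the abundant ones and went opposite ways between the genotypes. Of the 6 genes, 5 had a window of 300 bases in the RefSeq promoter table (GRCm38.p6, the assembly of mm10), covering 250 bases before the annotated start to 50 after it. Tagln had no entry. Both windows lie on the plus strand, Cnn2 at chr10:79988350-79988649 and Tagln2 at chr1:172499996-172500295, and capitals mark an exact CArG box.
Cnn2: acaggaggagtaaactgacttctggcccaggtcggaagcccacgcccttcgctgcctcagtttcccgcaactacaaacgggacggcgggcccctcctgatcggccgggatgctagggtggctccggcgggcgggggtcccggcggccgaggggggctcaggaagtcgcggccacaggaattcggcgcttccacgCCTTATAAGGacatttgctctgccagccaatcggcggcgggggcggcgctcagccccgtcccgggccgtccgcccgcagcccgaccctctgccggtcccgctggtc
Tagln2: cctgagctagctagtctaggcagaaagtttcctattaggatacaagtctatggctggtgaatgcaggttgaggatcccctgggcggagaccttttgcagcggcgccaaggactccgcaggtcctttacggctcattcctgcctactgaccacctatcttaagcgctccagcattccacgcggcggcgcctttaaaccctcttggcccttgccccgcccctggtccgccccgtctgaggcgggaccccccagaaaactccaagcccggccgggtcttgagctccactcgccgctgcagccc
The Cnn2 window held 1 exact CArG box, 56 to 47 bases before the start, and the Tagln2 window held none. An exact box, which reads as the same pattern on both strands, was present in 535 of all 32851 promoter windows, or 1.63%. Allowing 1 mismatch the share was 21.1%, and the only further match among the members lay in the upstream of the 2 Cald1 windows. Cnn1, Cnn3 and the downstream Cald1 window had no match of either kind. A match is a string of letters and was not tested as a binding site here, and its absence says only that the letters are not in that window.

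Srf itself was at 0.439 FPKM in Srf KO and 13.7 FPKM in WT in the authors' deposited table, the direction the labels give. Of the tested genes there, 4486 of 12634 (35.5%) passed an adjusted p threshold of 0.05, with 17.7% called higher and 17.8% called lower in Srf KO. Against that background the table tested 5 of the 6 members and called 4, of which Tagln2, Cnn3 and Cald1 were higher and Cnn2 was lower in Srf KO. With 5 genes tested, these counts are a description and not a property of the family. All folds below are log2 of Srf KO over WT, turned from the deposited direction, and the number after ± is the error of the fold, taken as the fold divided by the authors' test statistic.

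**Figure D1:**
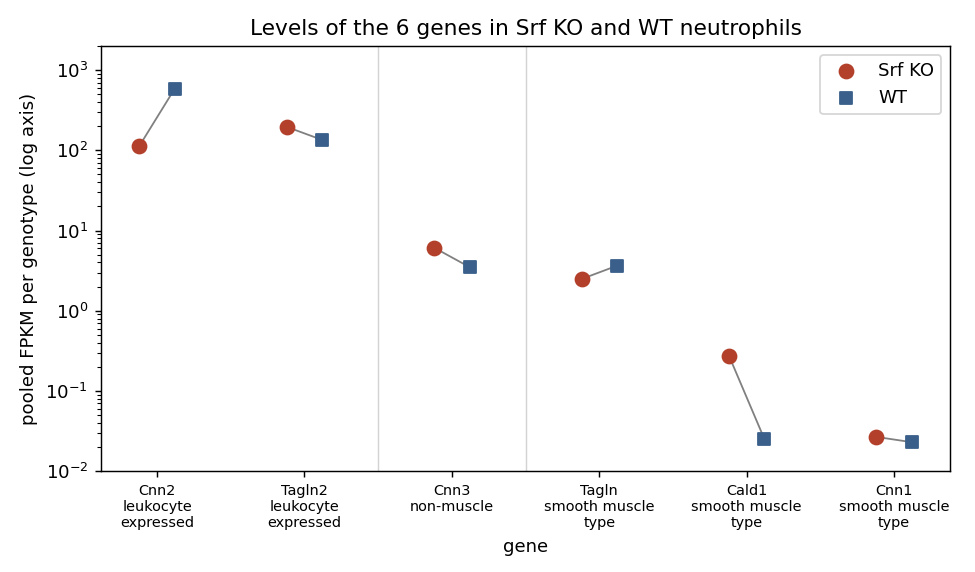
Pooled FPKM of each of the 6 genes in Srf KO (circles) and WT (squares) on a log axis, 1 value per genotype and gene, ordered from leukocyte expressed to smooth muscle type. Cnn2 and Tagln2 lie above 100 FPKM in both genotypes, Cnn3 and Tagln between 2.49 and 6.11 FPKM, and Cald1 and Cnn1 below 0.3 FPKM.

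Cnn2, the calponin of myeloid cells, fell. By the authors' deposited table it stood at 113 FPKM in Srf KO and 586 FPKM in WT, which placed it at rank 604 of all genes in Srf KO and rank 105 in WT. Its log2 fold in the authors' deposited table was -2.37 ± 0.73 (adjusted p = 0.00568 by their test), or 5.18-fold lower. Only 0.550% of tested genes had a fold as low. The 95% interval from the implied standard error ran from 1.92-fold to 14.0-fold lower, so the direction was better determined than the size. Neutrophil RNA was measured in bulk, so fewer cells of a type and less RNA per cell cannot be told apart.

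The neighbours of Cnn2 had wide errors too. Cnn2 (ENSMUSG00000004665.10, chromosome 10, 79988584 to 79996062, plus strand, 7 exons) overlaps no other gene in GENCODE M21. The authors' deposited table nevertheless gives it a locus of 672333 bp, from 79697305 to 80369637, that it shares with 45 other genes, the second most crowded of 20819 loci. Of those neighbours 35 were tested and 0 were called by the authors' test, with 1 at an unadjusted p under 0.05. That gene, Hmha1, named after its values were seen, stood at 148 FPKM in Srf KO and 290 FPKM in WT by the authors' deposited table (log2 fold -0.97 ± 0.47). The implied standard errors of the 35 ranged from 0.47 to 24.6 with a median of 3.48. Among 846 tested genes over 100 FPKM in a genotype the median was 0.19, and 19 reached that of Cnn2, 5 of them at the Cnn2 locus with Cnn2 counted.

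**Figure D2:**
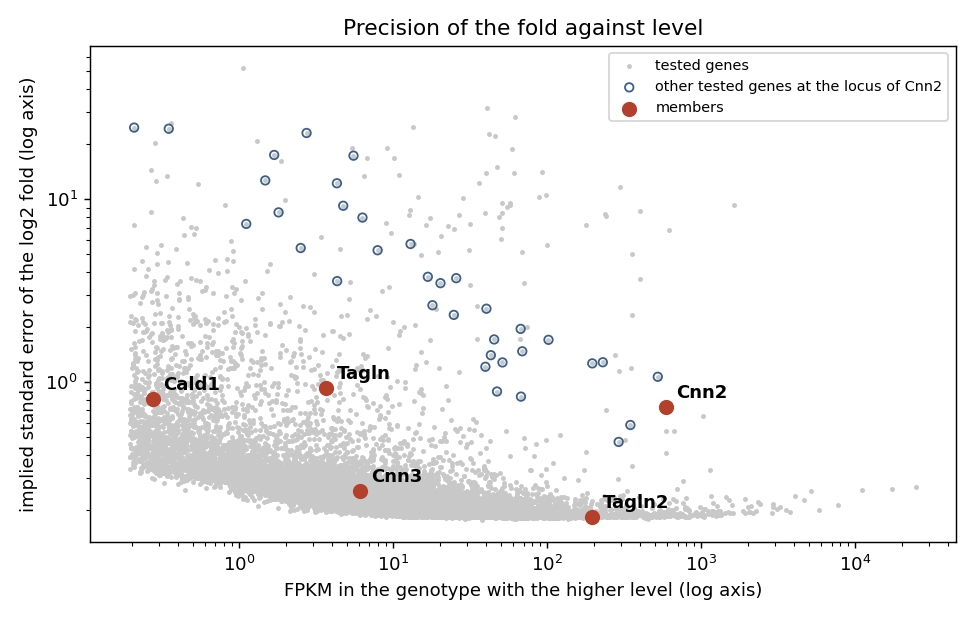
Implied standard error of the log2 fold against the higher of the Srf KO and WT levels in FPKM, both on log axes, for 12552 tested genes with a fold (grey), for the other tested genes at the locus of Cnn2 (open circles) and for the 5 tested members (filled circles). Cnn2 (0.73) and Tagln (0.93) lie above most genes of their level, whereas Tagln2 (0.18) and Cnn3 (0.25) lie in the grey band.

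Errors were also set out by how many genes share a locus. The median implied standard error was 0.23 over 10130 tested genes alone at their locus, 0.30 with 2 to 5 genes at the locus, 0.71 with 6 to 20 genes and 2.63 over the 37 genes with more than 20. That last class comes from 2 loci, and 36 of its 37 genes, with its 1 call, belong to the Cnn2 locus already described. The shares called in those classes were 38.7%, 23.9%, 18.1% and 2.70%. Tagln2, Cnn3 and Cald1 were alone at their loci, while Cnn2, Tagln and Cnn1 shared theirs.

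Tagln2, the leukocyte transgelin, rose slightly. In Srf KO it stood at 196 FPKM, against 135 FPKM in WT, by the authors' deposited table, a log2 fold of 0.54 ± 0.18 (adjusted p = 0.0128), or 1.45-fold higher. The 95% interval was 1.13-fold to 1.86-fold, and 25.3% of tested genes had a fold at least as high. Its standard error was among the smallest 2.57% of tested genes, so a modest change could be called. The call ended when folds were adjusted for transcript length (log2 fold 0.30, adjusted p = 0.197 when recomputed from the authors' deposited table). Tagln2 (ENSMUSG00000026547.15) lies on chromosome 1 from 172500047 to 172507380 on the plus strand, with 5 exons in the transcript measured and no overlapping gene.

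Cnn2 and Tagln2 changed places in the order of pooled levels, though the spread of each level between samples is unknown. The ratio of Tagln2 to Cnn2, both in FPKM and so per length, was 1.73 in Srf KO and 0.230 in WT. Their log2 folds differed by -2.91 ± 0.75 (Cnn2 minus Tagln2, 95% interval -4.39 to -1.43). Summed over the 6 genes the level was 318 FPKM in Srf KO and 729 FPKM in WT, calculated from the authors' deposited table. Of that sum Cnn2 made up 35.6% in Srf KO and 80.5% in WT, and Tagln2 61.6% in Srf KO and 18.5% in WT. The calponin genes together came to 119 FPKM in Srf KO and 590 FPKM in WT, and the transgelin genes to 198 FPKM in Srf KO and 138 FPKM in WT.

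**Figure D3:**
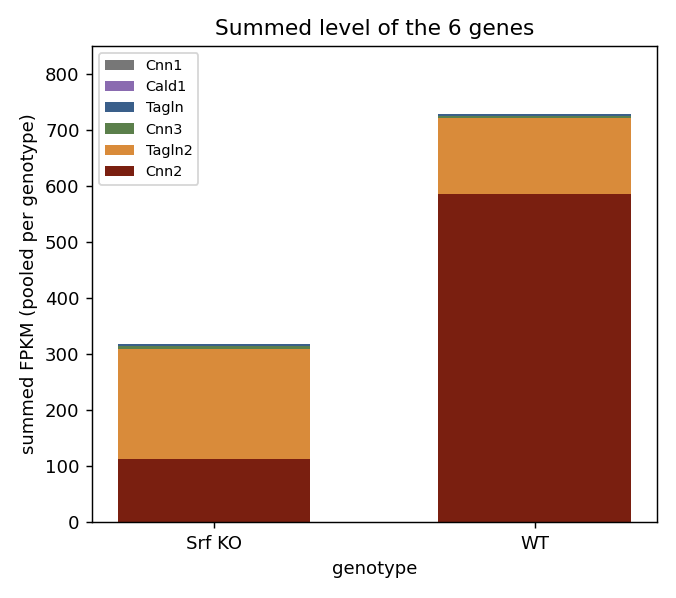
Summed pooled FPKM of the 6 genes in Srf KO (left bar) and WT (right bar), stacked by gene. Cnn2 is the largest part of the WT bar (80.5%) and Tagln2 the largest part of the Srf KO bar (61.6%); Cnn3, Tagln, Cald1 and Cnn1 together are thin bands at the top.

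Cnn3, the acidic non-muscle calponin, rose in the gene table and was left untested in the others. It stood at 6.11 FPKM in Srf KO and 3.50 FPKM in WT by the authors' deposited table, a log2 fold of 0.80 ± 0.25 (adjusted p = 0.00722), or 1.74-fold higher. Folds as high were held by 14.2% of tested genes. Cnn2 thus exceeded Cnn3 18.5-fold in Srf KO and 167-fold in WT, as levels in FPKM. The fold of Cnn3 did not differ from that of Tagln2 beyond its error (Tagln2 minus Cnn3 -0.26 ± 0.31, 95% interval -0.88 to 0.35), which leaves room for a difference in either direction. Cnn3 (ENSMUSG00000053931.11, chromosome 3, 121426497 to 121458207, plus strand, 7 exons) overlaps 2 unconfirmed transcribed regions in GENCODE M21, and the kit does not keep the strand.

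Among the smooth muscle type members, Tagln did not pass the test. The authors' deposited table gives 2.49 FPKM in Srf KO and 3.64 FPKM in WT, a log2 fold of -0.55 ± 0.93 (adjusted p = 0.681). The 95% interval of the ratio, 0.193 to 2.42, lies on both sides of 1, so these values do not settle its direction. Tagln (ENSMUSG00000032085.5, chromosome 9, 45929619 to 45936058, minus strand, 5 exons) overlaps Pcsk7 and an antisense RNA on the plus strand. Without strand, reads from any exon sequence they share cannot be told apart, and how much they share was not measured. Tagln shares its locus in the table with 2 genes. Of these Pcsk7, named after its values were seen, stood at 18.0 FPKM in Srf KO and 24.9 FPKM in WT by the authors' deposited table, with a log2 fold of -0.47 ± 0.22 and an adjusted p of 0.0764.

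Cald1, the caldesmon gene, was called higher in Srf KO at a low level. It stood at 0.274 FPKM in Srf KO and 0.0251 FPKM in WT by the authors' deposited table, with a log2 fold of 3.45 ± 0.81 (adjusted p = 0.000187), or 10.9-fold higher with a 95% interval of 3.63-fold to 32.7-fold. Only 0.207% of tested genes had a fold as high. On the log2(FPKM + 1) scale, which damps low genes, the difference was 0.31. Cald1 ranked 12130 in Srf KO and 14519 in WT, far below the leukocyte forms.

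The Cald1 value covers part of the gene. GENCODE M21 annotates Cald1 (ENSMUSG00000029761.16) on chromosome 6 from 34598500 to 34775473 with 18 transcripts, 10 of them coding. The authors' deposited table holds 1 isoform, NM_145575 with 12 exons, whose locus starts at 34709444 at the downstream of the 2 promoters. Smooth muscle and non-muscle caldesmon are splice forms of this gene, and a single isoform row cannot tell them apart. Antisense RNAs overlap the gene too.

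Cnn1, the calponin of differentiated smooth muscle, was near 0 in both genotypes. It stood at 0.0268 FPKM in Srf KO and 0.0230 FPKM in WT by the authors' deposited table and was left untested for too few reads, so no fold is given. Cnn1 (ENSMUSG00000001349.5, chromosome 9, 22099216 to 22109630, plus strand, 7 exons) shared its locus with 14 other genes, of which 11 were tested and 0 called by the authors' test, and 0 at an unadjusted p under 0.05.

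The smooth muscle type members were therefore a small part of the family. Cnn1, Tagln and Cald1 summed to 2.79 FPKM in Srf KO and 3.69 FPKM in WT, against 309 FPKM in Srf KO and 721 FPKM in WT for Cnn2 and Tagln2, calculated from the authors' deposited table. In Srf KO the order of levels was Tagln2, Cnn2, Cnn3, Tagln, Cald1 and Cnn1. In WT it was Cnn2, Tagln2, Tagln, Cnn3, Cald1 and Cnn1. Whether neighbours in these orders differ beyond the spread between samples could not be computed from pooled values.

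The leukocyte forms did not share a direction, with Cnn2 lower and Tagln2 higher. Of the smooth muscle type members Cald1 alone was called, as higher, and the direction of Tagln was not settled. Of the 10 pairs of tested members, the 95% interval of the difference in log2 fold excluded 0 for 6. These were the pairs of Cnn2 with Tagln2, Cnn3 and Cald1, and the pairs of Cald1 with Tagln2, Cnn3 and Tagln. Tagln, with its wide error, could be separated from Cald1 only (Tagln minus Cald1 -3.99 ± 1.23), and from Cnn2 the difference was -1.82 ± 1.18 (Cnn2 minus Tagln, 95% interval -4.15 to 0.50). The members share the same libraries, and these intervals take their errors as independent and are not adjusted for the number of pairs.

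**Figure D4:**
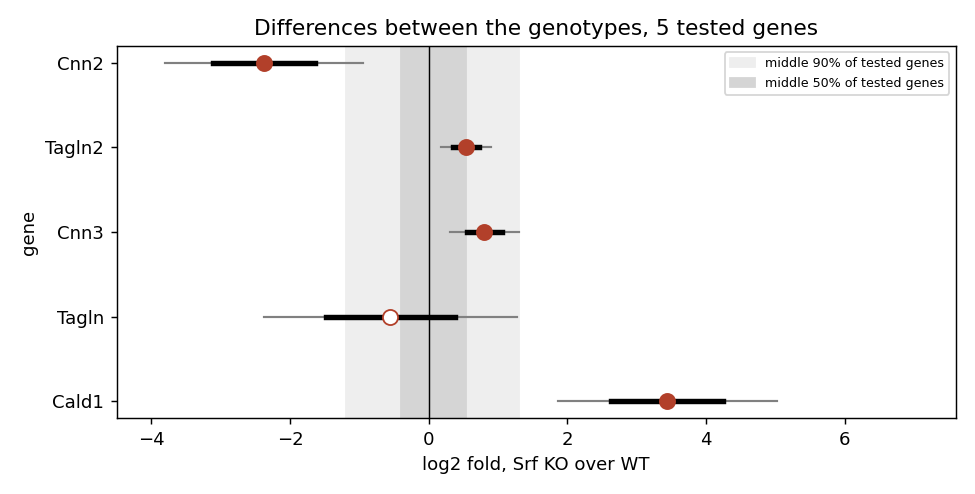
Log2 fold of Srf KO over WT for the 5 tested members, with the implied standard error (thick line) and its 95% interval (thin line); filled circles were called by the authors' test, the open circle was not, and grey bands hold the middle 50% and 90% of tested genes. Cnn2 (-2.37) and Cald1 (3.45) lie outside both bands, on opposite sides, and Tagln (-0.55) has an interval that spans 0.

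Each member had 1 row in the isoform, transcription start site and coding sequence tables, so no switch between transcripts could be seen. The FPKM values there were those of the gene table. In all 3 tables Cnn2, Tagln2 and Cald1 were called again, as were 27.2% of tested isoforms, 31.2% of start site groups and 30.2% of coding sequences. Cnn3 was not tested in these tables, with the same unadjusted p of 0.00160 and an adjusted p entered as 1 in the authors' deposited table. Cnn3 has 5 coding transcripts in GENCODE M21, of which the authors' deposited tables follow NM_028044.

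Other genes of smooth muscle and of the leukocyte actin filament were counted for context. Over all tested genes, 17.7% were called higher and 17.8% called lower in Srf KO. Of 18 smooth muscle contractile genes, 8 were tested by the authors, of which Csrp1 was called higher and Acta2 and Myh11 were called lower, with a median log2 fold of -0.03 against 0.08 over all tested genes. As many as 13 of the 18 were below 1 FPKM in both genotypes, as Cald1 and Cnn1 were. Of 23 genes whose products bind along leukocyte actin filaments or build them, 22 were tested, 13 called lower and 2 called higher, with a median log2 fold of -0.68. Among those 22 only Actg1 and Tpm4 had folds below that of Cnn2, and only Cttn and Evl had folds above that of Tagln2. The highest standard error among them was 0.48, below the 0.73 of Cnn2.

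The genes nearest to each member in level were sought over the pooled Srf KO and WT values alone, as the distance between log2 FPKM values. For Cnn2 these were the lectin gene Clec4d (109.8 FPKM in Srf KO, 396 in WT), the myosin gene Myh9 (106 and 368) and the filamin gene Flna (161 and 403) in the authors' deposited table, at distances of 0.57 to 0.74. All of them had shallower folds than Cnn2, from -1.85 to -1.32. Tagln2 had closer neighbours, Cox5b, Elane and Myeov2, at distances of 0.06 to 0.07. Elane lies at a locus of 46 genes and has a wide error (log2 fold 0.60 ± 1.27), and neither Elane nor Myeov2 was called. The nearest genes to Cnn3 were 2610002D18Rik, Tnfrsf26 and Prps1l3 and those to Tagln were Dcdc2c, Rhov and Thbd, at distances of 0.02 to 0.04. With a pair of values per gene, likeness here means a like level and fold only.

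Markers of the cells in and around the gate were measured beside these genes. For comparison, 17.7% of all tested genes were called higher and 17.8% called lower in Srf KO. The neutrophil markers Csf3r, Cxcr2, Mmp8 and Mmp9 stood at 201 to 1015 FPKM in Srf KO and 596 to 2320 FPKM in WT, and all 4 were called lower in the authors' deposited table. The granule and calgranulin genes S100a8, S100a9, Ltf and Ngp are listed at 0 in both genotypes and Camp at 0 in Srf KO, with a status of too many reads. Ly6g, also on the neutrophil list, had no entry under that symbol. Cnn2 was lower along with the 4 tested neutrophil markers, and their part in its fold was not tested.

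Markers of smooth muscle and pericytes, which carry Cald1 and Tagln in other tissues, were mostly at low levels. Of 10 smooth muscle and pericyte markers 3 were tested, 0 called higher and 2 called lower, summing to 13.5 FPKM in Srf KO and 44.3 FPKM in WT. Most of that was Acta2, at 12.9 FPKM in Srf KO and 43.5 FPKM in WT by the authors' deposited table. The other marker called lower, Myh11, stood at 0.0591 FPKM in Srf KO and 0.497 FPKM in WT (log2 fold -3.07 ± 0.43). Actg2 and Cspg4 were listed at 0 in WT and Lmod1 at 0 in Srf KO, and 9 of the 10 were under 1 FPKM in both genotypes. The tested marker that was not called, Pdgfrb, stood at 0.283 FPKM in Srf KO and 0.182 FPKM in WT. Its log2 fold was 0.64 ± 0.42 (adjusted p = 0.236 by the authors' test). With 3 of 10 markers tested, the part of such cells in the rise of Cald1 was not tested.

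Some markers of stroma, vessels and platelets were called higher in Srf KO, as Cald1, Cnn3 and 17.7% of all tested genes were. Of 10 fibroblast and stroma markers 6 were tested and 2 called higher, summing to 12.5 FPKM in Srf KO and 7.37 FPKM in WT, with none at 0. Of 10 endothelial markers 4 were tested and 3 called higher, summing to 1.72 FPKM in Srf KO and 0.561 FPKM in WT, with Cldn5 at 0 in WT. Of 12 megakaryocyte and platelet markers, all tested, 8 were called higher, summing to 67.9 FPKM in Srf KO and 23.6 FPKM in WT, with Gp6 at 0 in WT. Most of that rise was Pf4, at 39.2 FPKM in Srf KO and 2.68 FPKM in WT. Itgb3, at 16.1 FPKM in both genotypes, was not called. None of these lists had a member called lower. Their part in the rises of Cald1 and Cnn3 was not tested.

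Many markers of other blood lineages were called higher in Srf KO, as Tagln2 and 17.7% of all tested genes were. For T and NK cells 9 of 10 markers were higher by the authors' call, summing to 56.9 FPKM in Srf KO and 22.8 FPKM in WT, and for B cells 5 of 10, summing to 170 FPKM in Srf KO and 111 FPKM in WT. Of 10 macrophage markers, 8 passed the test as higher and 2 as lower, summing to 145 FPKM in Srf KO and 119 FPKM in WT. Calls of higher levels were made for 7 of the 8 erythroid markers with an entry and for 8 of 10 eosinophil, basophil and mast cell markers. Their summed levels were 51.8 FPKM in Srf KO and 18.4 FPKM in WT for the erythroid list, and 132 FPKM in Srf KO and 65.3 FPKM in WT for the other. The globin genes Hbb-b1 and Hba-a1, also on the erythroid list, had no entry under those symbols. No marker with an entry in these 5 lists was at 0, and the part of these lists in the rise of Tagln2 was not tested.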

How the data were processed

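Per the labels' protocols, total RNA went into TruSeq RNA v2 libraries, which do not keep the strand. The submitters' processing notes list CASAVA 1.8.1, TopHat2 2.0.0, Cufflinks 2.0.0 and mm10 with no settings. The 4 deposited tables give FPKM pooled by the authors per genotype, a log2 fold (WT over KO, other than a placeholder where a genotype is at 0), a test statistic or score, and a p-value and q-value, per the file headers. That the p-value is the normal tail of the statistic, and the q-value its Benjamini-Hochberg adjustment over tested rows, was checked on all 4 tables. Calls are those of the authors' test, and dividing the fold by the statistic gave the implied standard error.

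Members, lists and tests were chosen with earlier results of these data known. Start positions, counted from 0 by the authors, are given counted from 1. Gene positions and exons are from GENCODE M21. Genes named by rule were the 6 members, Srf and the 3 genes nearest to each tested member at 1 FPKM or more. Genes of the lists and markers were named where a result turned on them. Hmha1, Pcsk7 and Tagln3 were named after their values were seen. Length adjustment subtracted the running median fold over 50 bins of transcript length, available for 99.2% of genes, smoothed over 5 bins. Other alternatives were thresholds of 0.01 and 0.10, a filter at 1 FPKM, pseudocounts of 1 and 0.1, a fold minimum, centring and, added after seeing the data, loci holding 1 gene. Only the adjustment of p-values and the length adjustment were tested on simulated folds, and the other steps were not. Software was scipy 1.17.1, pandas 2.3.3 and numpy 2.4.6 in Python 3.11.15, with matplotlib 3.10.9 for plots.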

Additional observations from a re-analysis of the deposited data

How the results depend on the processing

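All 5 tested members kept their direction when folds were adjusted for transcript length. Centring took 0.00406, the median log2 fold of tested genes at 1 FPKM or more, from each fold. That shift was too small to change the direction of any member. The other alternatives could not change a direction, since they keep the order of the same pooled values. The call of Cnn2 held in each alternative that gave it an adjusted p. Tagln2 lost its call at a threshold of 0.01 (log2 fold 0.54, adjusted p = 0.0128 in the authors' deposited table) and with folds corrected for transcript length (log2 fold 0.30, adjusted p = 0.197), while Cnn3 kept it with that correction (adjusted p = 0.0461). The difference in Cald1 shrank to 1.58 on the log2(FPKM + 0.1) scale and 0.31 on the log2(FPKM + 1) scale, since its WT level lies far below either pseudocount. The number of members called was 4; it fell to 2, Cnn2 and Cald1, when a log2 fold of at least 1 was also asked, and was 3 or 4 under the other settings. Among genes alone at their locus, a setting added after seeing the data, 3 members were called, all of them higher. Cald1 gave no value under the filter at 1 FPKM, and Cnn2 and Tagln gave none among genes alone at their locus. Leaving out each sample was not run, since the tables hold pooled values. No paired analysis was possible because the labels share no replicate numbers between the genotypes and the columns are pooled.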

Other observations

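The neuronal transgelin gene Tagln3, looked at after the values of the others were seen, stood at 1.16 FPKM in Srf KO and 0.864 FPKM in WT by the authors' deposited table (log2 fold 0.43 ± 0.36, adjusted p = 0.365). It did not pass the test, and its level lay below that of Tagln in both genotypes.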
